A study of Mus musculus with 6 samples.

Results

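Mesenchymal genes and regulators of the epithelial-to-mesenchymal transition (EMT) were followed in epithelial tumor cells sorted from 6 mammary tumors of mice treated with an antibody against VEGF-A. The set holds 10 genes of the 47643 in the count files, of which 12088 passed the filter on low counts. It was chosen from earlier values of these same samples: Fn1, Vim, Adamts1 and Gja1 because they differed strongly between tumors, and Cdh2, Zeb1, Zeb2, Snai1, Snai2 and Twist1 as the cadherin and the transcription factors that define EMT. Their levels are therefore described without a test. All 10 were found under a single Ensembl gene each, and 6 passed the filter: the 4 variable genes, Snai1 and Snai2.

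The tumors arose in animals of the MMTV-PyMT strain (FVB/N-Tg (MMTV-PyVT)634Mul/J), in which the polyoma middle T antigen is driven by the mouse mammary tumor virus promoter, active mainly in mammary epithelium. The mice received the anti-VEGF-A antibody B20-4.1.1 at 5 mg/kg, 2 times per week for 6 weeks, starting at 7 weeks of age. CD45- EPCAM+ cells were sorted from the dissociated tumors, and the study's methods add CD31 and PDGFRα as negative markers of this gate. No untreated tumor and no hypoxia class of a tumor is given in the labels, so the 6 tumors, numbered as the labels number them, form 1 group. Each sample has an identifier of its own in the labels, which do not say that it marks a separate animal, so the spread between samples may be partly technical.

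In EMT, epithelial cells lose adherens and tight junctions and gain a vimentin filament network, fibronectin matrix and N-cadherin. The factors SNAI1, SNAI2, ZEB1 and ZEB2 bind E-box sequences and repress epithelial genes such as Cdh1, and TWIST1 activates mesenchymal ones. The MMTV-PyMT tumor is a luminal model in which most tumor cells keep epithelial genes, and mesenchymal genes are also expressed by fibroblasts, pericytes, endothelial cells and macrophages of the same tumor.

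Counts on genes lay between 2509482 and 5893246 per library, with 5008339 in tumor 5. The floor of detection was set at 3 counts, or 0.509 to 1.20 CPM (the count of a gene scaled to a fixed library total). Levels are in CPM, with exact Poisson 95% intervals that cover counting error only, and ratios between tumors are on CPM divided by edgeR's normalization factor of the library (TMM-scaled CPM). The epithelial identity of the sort was checked with 16 epithelial genes, which summed to between 4741 and 5396 CPM. Tumor 1 was the highest of the 6 for 32.5% of the genes tested, the largest share of any tumor, and erythroid genes summed to 778 CPM in tumor 3 against 63.3 CPM or less elsewhere.

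Promoter sequences are shown for 3 members whose start sites RefSeq places (6 of 10 members matched): Gja1 and Adamts1, which were raised in the same tumor, and Snai1, the EMT factor with the most counts. Each is the 250 bases before the transcription start in GRCm38.p6, 5′ to 3′ on the gene's strand, for Gja1 chr10:56377050-56377299 (plus strand), for Adamts1 chr16:85803114-85803363 (minus strand) and for Snai1 chr2:167537945-167538194 (plus strand). Capitals mark matches on either strand to CAGGTG (the E-box bound by Snail and ZEB factors), TGANTCA (AP-1), ACGTG and GCGTG (the core of a HIF site) or GGAATG (TEAD).
Gja1: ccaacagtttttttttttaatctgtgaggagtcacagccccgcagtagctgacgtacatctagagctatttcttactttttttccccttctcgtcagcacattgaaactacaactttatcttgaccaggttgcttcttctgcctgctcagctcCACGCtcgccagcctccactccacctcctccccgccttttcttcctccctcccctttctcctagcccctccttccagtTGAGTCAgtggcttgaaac
Adamts1: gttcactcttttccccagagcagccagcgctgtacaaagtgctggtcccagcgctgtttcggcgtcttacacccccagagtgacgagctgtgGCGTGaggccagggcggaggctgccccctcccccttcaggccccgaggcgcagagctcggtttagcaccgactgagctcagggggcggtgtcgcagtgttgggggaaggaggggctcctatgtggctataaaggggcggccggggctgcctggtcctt
Snai1: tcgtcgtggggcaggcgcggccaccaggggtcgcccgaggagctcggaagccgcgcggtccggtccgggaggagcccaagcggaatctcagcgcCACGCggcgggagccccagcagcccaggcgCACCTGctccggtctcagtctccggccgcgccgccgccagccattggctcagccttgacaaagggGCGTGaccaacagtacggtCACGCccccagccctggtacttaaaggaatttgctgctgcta
Gja1 held an AP-1 match from base -19 to -13 and a GCGTG match from -97 to -93 relative to the start. Adamts1 held 1 GCGTG match, from -158 to -154. Snai1 held 3 GCGTG matches and an E-box from -126 to -121. Among 32851 promoter windows of this length, 17.2% held CAGGTG, 6.75% TGANTCA, 16.6% ACGTG, 28.2% GCGTG and 12.6% GGAATG. The GCGTG match was thus the commonest of these motifs in promoters at large, and Gja1 and Adamts1 held no E-box or TEAD match in this window. Vim, which was raised in the same tumor and also matched, held none of the 5 motifs in its window, chr2:13574061-13574310 (plus strand), which is not printed because it lies inside the annotated span of the gene.

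Of the 10 genes, 4 were far higher in tumor 5 than in any other tumor, and the EMT transcription factors were at 32 counts or fewer in every tumor. The summed level of Fn1, Vim, Adamts1 and Gja1 was 87.2, 45.4, 62.8, 167, 1280 and 84.9 CPM in tumors 1 to 6. These 4 were chosen for varying between tumors, and none of the other 6 reached 3-fold over the next tumor.

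**Figure D1:**
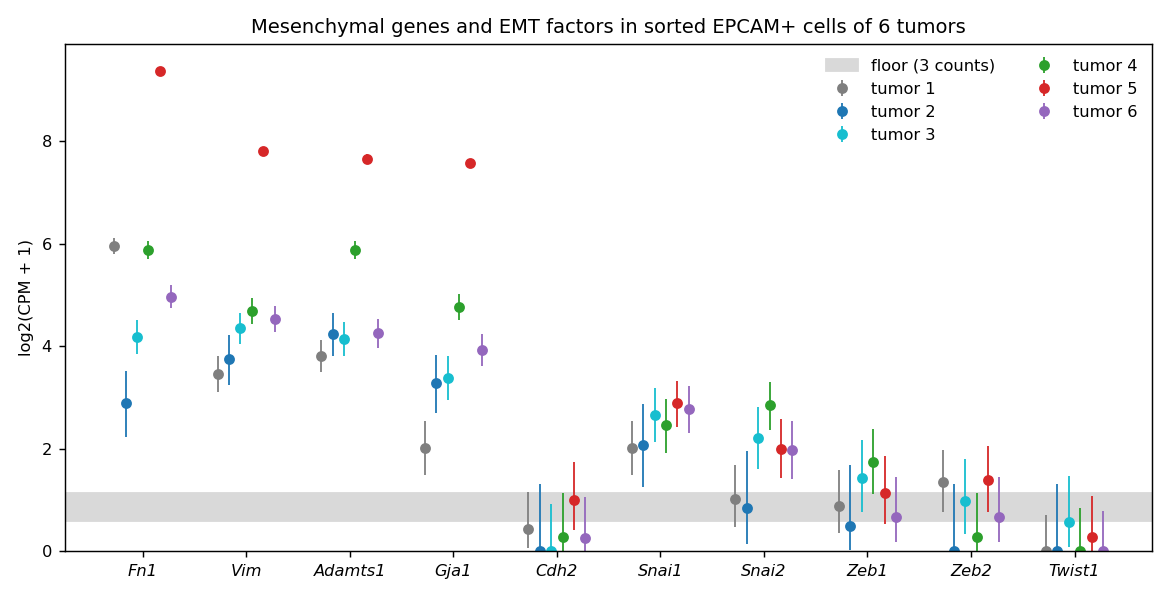
Level of each of the 10 genes, as log2(CPM + 1), in the 6 tumors; points are single libraries, bars exact Poisson 95% intervals of the count and the gray band the floor of 3 counts. Fn1, Vim, Adamts1 and Gja1 of tumor 5 (189 to 666 CPM) lie above all other tumors (at most 61.1 CPM), and Cdh2, Zeb1, Zeb2 and Twist1 lie near the floor throughout.

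Fn1 (ENSMUSG00000026193, chr1:71585520-71653200, minus strand, GRCm38) encodes fibronectin, a glycoprotein of the extracellular matrix bound by integrins. Its level was 61.1, 6.38, 17.2, 58.1, 666 and 30.3 CPM in tumors 1 to 6. Tumor 5, with 3336 counts and an interval of 644 to 689 CPM, stood 11.0-fold above the next tumor and 19.6-fold above the median of the other 5. Below it the tumors still spread widely, with tumors 1 and 4 alike (intervals of 54.9 to 67.7 and 51.4 to 65.4 CPM) and tumor 2 lowest at 16 counts. The 3′ reads do not separate the splice forms of fibronectin. An antisense gene that overlaps the 5′ end of Fn1, Apol7d, had 2 counts over the 6 libraries against 4211 for Fn1.

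Gja1 (ENSMUSG00000050953, chr10:56377330-56402513, plus strand) encodes connexin 43, a gap junction channel protein that in the mammary gland is typical of myoepithelial cells. Its level was 3.05, 8.77, 9.46, 26.2, 189 and 14.3 CPM in tumors 1 to 6. The value of tumor 5 (947 counts, 177 to 202 CPM) was 7.20-fold that of tumor 4 and 20.4-fold the median of the other 5. Tumor 4 in turn had an interval of 21.7 to 31.2 CPM that did not overlap those of tumors 1, 2, 3 and 6.

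Vim (ENSMUSG00000026728, chr2:13573927-13582826, plus strand) encodes vimentin, the intermediate filament protein of mesenchymal cells. Its level was 10.0, 12.4, 19.4, 24.9, 223 and 22.3 CPM in tumors 1 to 6. Tumor 5 (1118 counts, 210 to 237 CPM) was 8.92-fold above the next tumor and 11.9-fold above the median of the others. The other 5 tumors lay between 10.0 and 24.9 CPM, and the intervals of tumors 3, 4 and 6 overlapped. The other type III filament genes, Des, Gfap and Prph, were at or under 3 counts in every tumor.

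Adamts1 (ENSMUSG00000022893, chr16:85793827-85803113, minus strand) encodes a secreted metalloprotease with thrombospondin repeats that cleaves proteoglycans such as versican. Its level was 13.1, 17.9, 16.7, 57.9, 201 and 18.2 CPM in tumors 1 to 6. Tumor 5 (1009 counts, 189 to 214 CPM) was 3.47-fold above tumor 4 and 10.6-fold above the median of the others. Of the 4 genes this was the smallest lead over the next tumor, and tumor 4 was also well above the rest, whose intervals ended at 24.0 CPM or below.

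Cdh2 (ENSMUSG00000024304, chr18:16588877-16809246, minus strand), the gene of N-cadherin, had 2 counts in tumor 1, 0 in tumors 2 and 3, 1 in tumors 4 and 6 and 5 in tumor 5. The 5 counts equal 0.998 CPM, with an interval of 0.324 to 2.33 CPM that overlapped those of all other tumors. A switch from E-cadherin to N-cadherin was thus not detectable at this depth: Cdh1, the gene of E-cadherin, was at 1603 CPM in tumor 5 and at 1176 to 1798 CPM in the others.

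Among the transcription factors, Snai1 (ENSMUSG00000042821, chr2:167538195-167542814, plus strand), a zinc finger repressor of Cdh1, had the most counts. It was at 3.05, 3.19, 5.33, 4.47, 6.39 and 5.86 CPM in tumors 1 to 6. The intervals of all 6 overlapped (4.37 to 9.02 CPM in tumor 5 and 1.81 to 4.83 CPM in tumor 1). Tumor 5 was the highest in CPM and tumor 6 in TMM-scaled CPM, so the order at the top depended on the scaling.

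Snai2 (ENSMUSG00000022676, chr16:14705852-14709385, plus strand), the related repressor that also acts in mammary basal cells, was at 1.02, 0.797, 3.64, 6.17, 3.00 and 2.93 CPM in tumors 1 to 6. The highest value was that of tumor 4, with 29 counts, and tumor 5 had the same 15 counts as tumors 3 and 6.

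Zeb1 (ENSMUSG00000024238, chr18:5591860-5775467, plus strand) and Zeb2 (ENSMUSG00000026872, chr2:44983632-45117395, minus strand) encode the zinc finger and homeobox repressors that the miR-200 family holds down in epithelial cells. Zeb1 had 5, 1, 7, 11, 6 and 3 counts in tumors 1 to 6. Zeb2 had 9, 0, 4, 1, 8 and 3 counts, and its value in tumor 5 (1.60 CPM) was close to that in tumor 1 (1.53 CPM). Twist1 (ENSMUSG00000035799, chr12:33957671-33959829, plus strand), a basic helix-loop-helix factor, had 2 counts in tumor 3, 1 in tumor 5 and 0 in the other 4 tumors. For these 3 factors the intervals of tumor 5 overlapped those of every other tumor, so a difference was not detectable at this depth. Genes that overlap Zeb1, Zeb2 or Cdh2 in the annotation had at most 1 count over the 6 libraries.

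The lead of tumor 5 was set against all genes. Of the 12088 genes tested, 16.9% were highest in tumor 5 and 0.472% (57 genes) were at least 3-fold higher there than in the next tumor. The gap of tumor 5 to the nearest other, divided by the range, was above Dixon's critical value for 1.38% of genes. All 4 variable members were past both limits on the values that chose them, and neither Snai1 nor Snai2 was. The log2 ratio of tumor 5 to the median of the other 5 had a median of 0.00 over all genes, and was 4.29 for Fn1, 4.35 for Gja1, 3.58 for Vim and 3.41 for Adamts1. For Snai1 and Snai2 the same log2 ratio was 0.51 and -0.14. Sample identifiers in the labels carry 2 prefixes, and tumor 5 shares its prefix with tumors 1, 4 and 6. Within these 4 tumors, tumor 5 was above the next by 11.0-fold for Fn1, 8.92-fold for Vim, 3.47-fold for Adamts1 and 7.20-fold for Gja1, the same tumors being next as among all 6.

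The dispersion fitted by edgeR over the 6 tumors, relative to its trend on expression, ranked Fn1 5th, Gja1 11th, Vim 19th and Adamts1 33rd from the top of the 12088 genes. The biological coefficient of variation is the square root of this fitted dispersion, which edgeR draws toward the trend, and not the plain SD over the mean. In these units Fn1 reached 106% where the trend was 35.3%, and Adamts1 79.4%. Snai1, at 37.8% against a trend of 48.2%, was at the 17.2 percentile, and Snai2 at the 80.2 percentile. The variable members were thus among the most variable genes, the property they were chosen for, and Snai1 varied less between tumors, relative to the trend, than most genes.

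**Figure D2:**
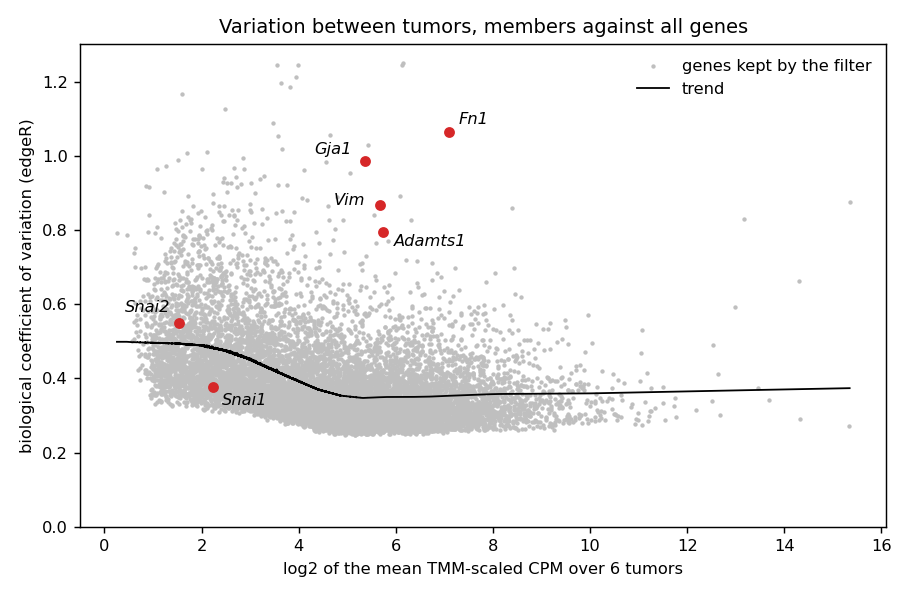
Biological coefficient of variation over the 6 tumors against log2 of the mean TMM-scaled CPM for the 12088 genes tested (gray), with the trend (black line) and the 6 members that passed the filter (red). Fn1 (1.06), Gja1 (0.986), Vim (0.867) and Adamts1 (0.794) lie far above the trend, and Snai1 (0.378) and Snai2 (0.55) lie near it.

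The 4 genes did not share 1 order among the other tumors. Across the 5 tumors other than tumor 5, Pearson's r of log2(TMM-scaled CPM + 1) was 0.917 between Vim and Gja1, 0.856 between Adamts1 and Gja1 and 0.674 between Vim and Adamts1. Fn1 followed these less, with 0.176 for Vim, 0.312 for Adamts1 and 0.0440 for Gja1. With tumor 5 included, the 6 pairs had r from 0.759 to 0.971. These values describe 5 or 6 tumors and share their libraries. In the other 5 tumors Fn1 was highest in tumor 1, where Gja1, Vim and Adamts1 were lowest.

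Other genes of the mesenchymal program were read from a list of 20 effectors, of which 16 passed the filter. Of these 16, 10 were highest in tumor 5 (62.5%, against 16.9% of all genes), and the rest in tumor 1, 3 or 4. None was lowest in tumor 5, where 15.3% of all genes had their lowest value. On the log2 scale tumor 5 exceeded the median of the others by 0.72 in the median over the 16, ranging from -0.34 to 2.74. Sparc, a collagen-binding matrix protein, was at 169 CPM in tumor 5, against 18.7 to 27.3 CPM elsewhere. Tnc, the matrix protein tenascin C, was at 130 CPM against 15.1 to 26.4 CPM. These 2 were also past the 3-fold limit over the next tumor. Ccn2, a matricellular protein induced by TGF-β and YAP, was at 46.9 CPM against 4.38 to 22.1 CPM, and S100a4, a calcium-binding protein of motile cells, at 20.4 CPM against 1.99 to 9.96 CPM.

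Of the cell surface and actin-binding genes of the list, some were raised less in tumor 5 and others were not raised there. Cd44, a hyaluronan receptor, was at 251 CPM against 77.2 to 194 CPM in the others, and Itgb1, the integrin chain that pairs with several α chains to bind fibronectin, at 282 CPM against 142 to 227 CPM. Cald1 and Tpm1, actin-binding proteins, were at 974 CPM (443 to 716 CPM in the others) and 657 CPM (354 to 497 CPM), and Thbs1, the matrix protein thrombospondin 1, at 174.5 CPM (24.8 to 92.9 CPM). The 4 effectors that did not pass the filter were Itga5, the α chain of the classical fibronectin receptor, with at most 3 counts in a tumor, Mmp2, Tagln and Loxl2. Loxl2, an enzyme that crosslinks collagen, had 19 counts (3.79 CPM) in tumor 5 and 0.425 CPM or less elsewhere. Lgals1, a galectin abundant in mesenchymal cells, was highest in tumor 1, at 199 CPM against 89.7 CPM in tumor 5.

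Of 9 further factors linked to EMT, 3 passed the filter and 0 of these were highest in tumor 5, against 16.9% of all genes. With 3 genes this count says little about the factors. Foxc1, a forkhead factor, was at 164 CPM in tumor 5, against 135 to 204 CPM elsewhere, and Tcf4, an E-protein, at 170 CPM against 52.3 to 179 CPM. Prrx1, a homeobox factor of mesenchymal cells, did not pass the filter because it was counted in few tumors: it had 39 counts (7.79 CPM) in tumor 5 and at most 2 counts in each of the others. Klf8, a repressor of Cdh1, also fell short of the filter (15 counts, 3.00 CPM against 0.679 to 2.18 CPM). With 9 counts of Klf8 in tumor 3, its lead in tumor 5 was within counting error.

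Epithelial identity genes did not share the pattern. All 16 of the list passed the filter, and 0 were highest in tumor 5, against 16.9% of all genes. On TMM-scaled CPM 1 of the 16, Esrp1, was lowest there, against 15.3% of all genes. Their log2 ratio of tumor 5 to the median elsewhere had a median of -0.04, between -0.66 and 0.37. Their sum was 4911 CPM in tumor 5, against 4741 to 5396 CPM elsewhere. Epcam, the marker used for the sort, was at 839 CPM against 611 to 972 CPM. Cells without EPCAM were left out by the sort, so the epithelial values describe only cells that kept it. A loss of epithelial genes in cells outside the gate could not be seen here. Grhl2 and Ovol2, factors that restrain Zeb1 in epithelium, were at 52.1 CPM (15.1 to 70.6 CPM in the others) and 7.19 CPM (5.18 to 9.76 CPM), and Esrp1, the epithelial splicing regulator, at 191 CPM (185 to 259.9 CPM), within the others' range in CPM only. In bulk RNA, more cells that express a gene and more RNA per cell cannot be told apart.

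**Figure D3:**
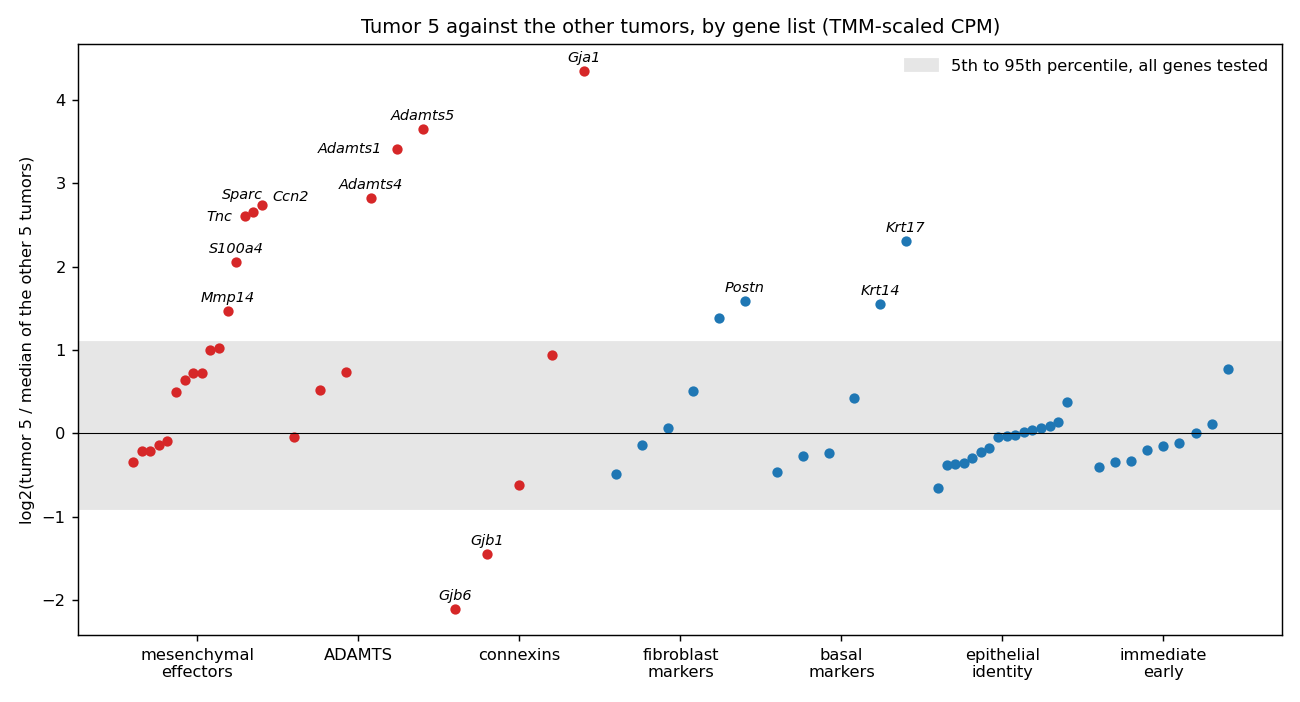
Log2 ratio of tumor 5 to the median of the other 5 tumors (TMM-scaled CPM) for each gene that passed the filter, by gene list (red, mesenchymal effectors and the families of Adamts1 and Gja1; blue, markers of other cell types, epithelial identity and stress genes); the gray band holds the 5th to 95th percentile of all genes tested. Gja1 (4.35), Adamts5 (3.65), Adamts1 (3.41), Adamts4 (2.82) and the effectors Ccn2, Sparc and Tnc (2.61 to 2.74) are among the genes above the band. The 16 epithelial identity genes (-0.66 to 0.37) lie within it. The highest blue points are the basal markers Krt17 (2.31) and Krt14 (1.55) and the fibroblast marker Postn (1.59).

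Within the gene families of Gja1 and Adamts1, the members moved differently. Of 10 connexin genes 5 passed the filter, and of these Gja1 alone was highest in tumor 5 (20%, against 16.9% of all genes). Gjb1 (connexin 32), Gjb2 (connexin 26) and Gjb6 (connexin 30), connexins found in mammary luminal cells, were lowest in tumor 5. Of all genes, 15.3% were lowest in tumor 5. Gjb2 was at 48.5 CPM there and 57.9 to 77.4 CPM in the others, and Gjb1 at 4.19 CPM against 7.97 to 14.1 CPM. Gjb6 was at 1.20 CPM (6 counts) against 1.59 to 9.57 CPM. With 4 counts of Gjb6 in tumor 2, its place as lowest in tumor 5 was within counting error. Of 6 ADAMTS genes, all passed the filter and 4 were highest in tumor 5 (66.7%, against 16.9% of all genes). Of these 4, Adamts1 was chosen for its variation, and Adamts15 led the next tumor by only 1.04-fold (21.6 CPM against at most 20.9 CPM). Adamts5, the neighbor of Adamts1 on chromosome 16 and an aggrecanase, was at 21.2 CPM against 0.976 to 3.62 CPM, and Adamts4, also an aggrecanase, at 18.6 CPM against 2.34 to 3.39 CPM. Adamts8 and Adamts9 were highest in tumors 2 and 4.

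Markers of other cells that express mesenchymal genes were read beside these values. The 10 fibroblast genes summed to 48.5 CPM in tumor 5, against 21.4 to 39.8 CPM elsewhere, of which Postn gave 24.0 CPM in tumor 5 and 20.3 CPM in tumor 6. Pdgfra was at 3.00 CPM in tumor 5 (1.70 to 3.40 CPM in the others), Col1a1 at 8.79 CPM (4.47 to 11.6 CPM) and Dcn at 3.00 CPM (1.87 to 7.44 CPM). Lum had 0 counts in tumor 5, and Pdgfrb and Thy1 4 counts each. The 4 pericyte genes summed to 2.80 CPM in tumor 5, the lowest of the 6, and the 5 endothelial genes to 3.59 CPM against 1.59 to 3.88 CPM. Immune genes summed to 129 CPM against 104 to 310 CPM, most of it S100a8 (75.1 CPM in tumor 5), and Ptprc, the gene of CD45, was at 1.20 CPM. Of the 13 genes of these 4 lists that passed the filter, Postn and Col3a1 (4.99 CPM against 0.509 to 4.85 CPM) were highest in tumor 5. They led the next tumor by 1.05-fold and 1.07-fold. Over all genes 16.9% were highest in tumor 5, a share close to that of these lists. The part of stromal cells in the level of the 4 genes was not tested.

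Basal markers moved with the 4 genes in part. The 9 genes summed to 536 CPM in tumor 5, against 172 to 354 CPM elsewhere. Krt14 was at 359 CPM against 88.8 to 241 CPM and Krt17 at 127 CPM against 14.7 to 40.8 CPM, and both are keratins of basal cells. Krt5 (10.2 CPM), the basal regulator Trp63 (4.59 CPM), Mylk and Oxtr were within the range of the other tumors, and the contractile genes Acta2, Myh11 and Cnn1 had at most 2 counts each in tumor 5. The part of basal cells in the level of the 4 genes was not tested. Immediate early and heat shock genes, which mark dissociation stress, summed to 3734 CPM in tumor 5, inside the range of the remaining tumors (2677 to 4471 CPM).

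**Figure D4:**
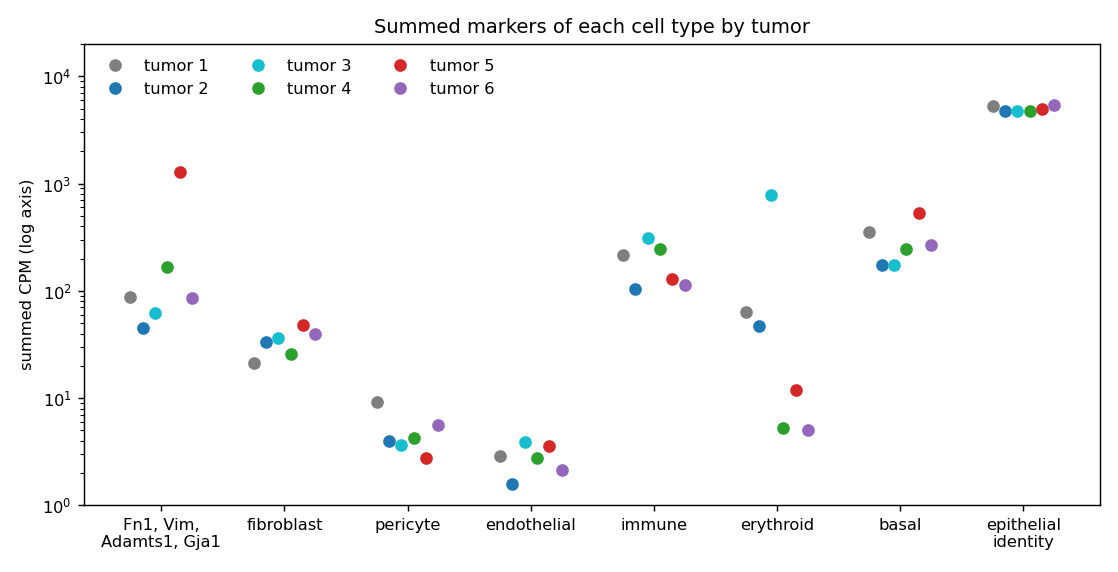
Summed CPM (log axis) of Fn1, Vim, Adamts1 and Gja1 and of the markers of each cell type, with 1 point per tumor. Tumor 5 leads the 4 genes (1280 CPM against at most 167 CPM) and the basal list (536 CPM), and the fibroblast list by little (48.5 CPM against at most 39.8 CPM), its pericyte sum (2.80 CPM) is the lowest, and its endothelial (3.59 CPM) and epithelial (4911 CPM) sums lie among the others.

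The study compares tumors of low and high hypoxia under VEGF-A blockade. The hypoxia score of the study's methods, the mean of Vegfa, Slc2a1 and Car9 (here in TMM-scaled CPM), was 65.1, 52.3, 68.1, 102, 130 and 74.0 in tumors 1 to 6. Tumor 5, with the highest 4 genes, also had the highest score, and tumor 4, next for Adamts1 and Gja1, had the next score. Since the 4 genes were chosen on these levels, their relation to the score is given without a p. Over the 6 tumors Pearson's r with the score was 0.893 for Fn1, 0.861 for Vim, 0.915 for Adamts1 and 0.870 for Gja1. In a two-sided exact permutation test over the 720 orders of the tumors, run for each of the 12088 genes, the unadjusted p was under 0.05 for 6.04% by r and 7.25% by Spearman's rho. Adjusted by Benjamini-Hochberg over all of them, 0% passed 0.05 by either measure. With 6 tumors the smallest possible p is 0.00139, so that at least 336 genes must be at or near it before any adjusted p falls to 0.05, and 21 reached it by r, so this count of 0 says little about any relation.

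Spearman's rho was 0.657 for Fn1, 0.886 for Vim, and 0.829 for Adamts1 and Gja1. Without the 2 tumors farthest from the median score, tumors 4 and 5, r over the 4 remaining tumors was 0.706 for Fn1, 0.602 for Vim, 0.218 for Gja1 and -0.04 for Adamts1, so the relation of Adamts1 and Gja1 rested on tumors 4 and 5. For Snai1, r was 0.609 (exact permutation p = 0.207, adjusted p = 0.797) and rho 0.657 (p = 0.175, adjusted p = 0.581), and for Snai2 r was 0.665 (p = 0.147, adjusted p = 0.789) and rho 0.600 (p = 0.242, adjusted p = 0.654). With the 2 tumors left out, r was 0.723 for Snai1 and 0.795 for Snai2. Within the 4 tumors that share the prefix of tumor 5, r was 0.801 for Fn1, 0.892 for Vim, 0.993 for Adamts1, 0.951 for Gja1, 0.530 for Snai1 and 0.575 for Snai2, and the other prefix holds 2 tumors, too few for a value.

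**Figure D5:**
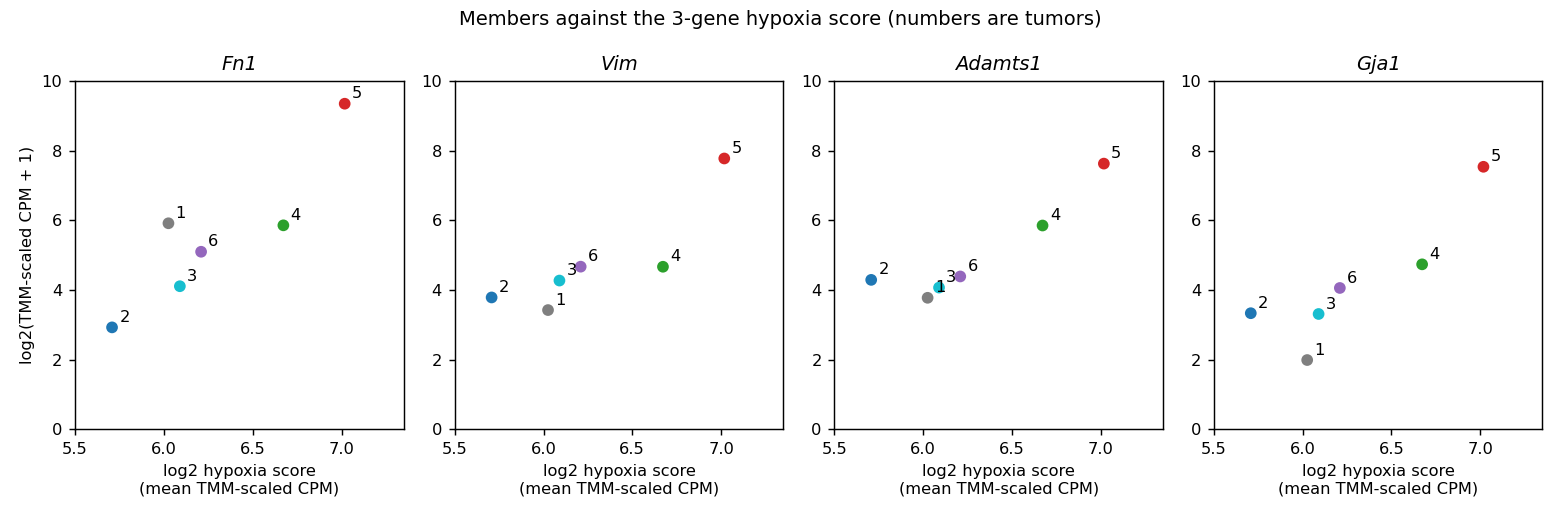
Level of Fn1, Vim, Adamts1 and Gja1, as log2(TMM-scaled CPM + 1), against log2 of the 3-gene hypoxia score; each point is a tumor, marked with its number. Tumor 5 (score 130) is highest on both axes in each panel, and tumors 1, 2, 3 and 6 (scores of 52.3 to 74.0) lie between 12.7 and 19.9 TMM-scaled CPM for Adamts1.

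The genes whose pattern over the 6 tumors was most like each variable member were taken from the 8869 genes whose mean was 10 CPM or more, members left out, by Pearson's r of log2(TMM-scaled CPM + 1). For Fn1 these were Rtn4 (r = 0.993), Krt17 (0.990) and Col4a1 (0.990). For Vim they were Sdc1 (0.993), Sox11 (0.992) and Snhg15 (0.989). For Adamts1 they were P4ha2 (0.993), Myh10 (0.987) and Mtmr7 (0.985), and for Gja1 Myh10 (0.989), F2rl1 (0.989) and Ankrd1 (0.988). Between 21 and 26 genes per member had an r of at least 0.95.

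Likeness of pattern did not mean likeness of size. Col4a1, a chain of basement membrane collagen, was at 120 CPM in tumor 5, against 3.19 to 13.9 CPM elsewhere, and Sox11, an embryonic transcription factor, at 56.5 CPM against 1.19 to 4.25 CPM. Ankrd1, a target of YAP and TEAD, was at 78.1 CPM against 1.19 to 9.36 CPM. P4ha2, a prolyl hydroxylase of collagen chains, was at 46.1 CPM against 7.76 to 17.7 CPM and Myh10, a nonmuscle myosin, at 47.5 CPM against 7.98 to 18.3 CPM, both with tumor 4 next. Rtn4 (582 CPM against 328 to 432 CPM) and Sdc1, a heparan sulfate proteoglycan of epithelium (56.9 CPM against 24.7 to 31.3 CPM), had a high r over a much smaller range.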

How the data were processed

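The authors made 3′ libraries (QuantSeq FWD) from sorted CD45- EPCAM+ cells. Reads were trimmed (bbduk), aligned to GRCm38/mm10 (STAR 2.5) and assigned to genes by HTSeq, all run through the Bluebee platform. The deposited values are raw read counts per gene, not normalized. Per the labels, the kit keeps the strand and adds molecular identifiers of 6 bases to the second-strand primers. Collapsing by identifier, the strand setting of the counting and the annotation release are not given in the sources used here, so intervals hold counting error only. In each file 5 lines name no gene (16.1 to 41.4% of the reads) and were excluded.

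Symbols and positions were taken from GENCODE M21 (GRCm38). Genes were kept by edgeR's filterByExpr (minimum count 10, minimum total 15, 3 libraries). TMM factors lay between 0.910 and 1.06. Relations used log2(TMM-scaled CPM + 1) and exact permutation over 720 orders (smallest p 0.00139), adjusted over all genes kept. The test was checked on simulated data. Named genes are the members, the genes of fixed lists, and for each variable member the 3 genes with the highest r. The genes that lead tumor 5 in the closing section were named after their values were seen. Members and lists were chosen with earlier results of these data known. The gap between an extreme tumor and its neighbor, as a share of the range, was read against Dixon's value for 6 samples (0.625). Alternatives were DESeq2 size factors and dispersions, CPM without TMM factors or without the 10 most abundant genes of each library, pseudocounts of 0.5 and 5, no filter, a geometric mean score, each tumor left out and, added after seeing the data, the tumors of 1 identifier prefix. Software was R 4.3.3, edgeR 4.0.16, DESeq2 1.42.0 and Python 3.11.15. Promoters come from RefSeq (GRCm38.p6). The CD45+ fraction was not analysed here. The values of 1 gene of the effector list are not reported here.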

Additional observations from a re-analysis of the deposited data

Results flagged for a closer look

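Of 24 measures compared over the 6 tumors (10 members and 14 list sums), 10 held a tumor set apart by Dixon's criterion, and 1.2 would be reached by chance in independent normal values. Over all 12088 genes tested, 13.4% held such a tumor at the top, which is the background of these data. The measures are not independent, since the family sums contain members. Tumor 5 was singled out for Fn1 (a gap of 0.917 of the range), Vim (0.930), Gja1 (0.876) and Adamts1 (0.762), which were chosen for their variation. It was also singled out for Cdh2 (0.660), where the gap is between 5 and 2 counts and within counting error.

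The sum of the 20 mesenchymal effectors reached 3185 CPM in tumor 5, with 1956 CPM the next value (0.826 of the range). The connexin sum (0.728), the ADAMTS sum (0.790) and the sum of type III filament genes (0.934) were carried by Gja1, Adamts1 and Vim. The erythroid sum reached 778 CPM in tumor 3, with 63.3 CPM the next value (0.925), and tumor 3 was not the highest for any of the 4 variable genes.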

How the results depend on the processing

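Of 172 values recomputed under the alternatives, 19 moved by more than their limits, 16 of these with a tumor left out. The ratio of the highest tumor to the median of the others ranged, with each tumor left out in turn, from 2.40 to 26.3 for Fn1, 1.57 to 14.0 for Vim, 3.30 to 11.5 for Adamts1 and 2.85 to 20.5 for Gja1, the lowest value being that without tumor 5 in each case. The number of members with a tumor at least 3-fold above the next ranged from 0 (without tumor 5) to 4. Over the same sets, r with the hypoxia score ranged from 0.731 to 0.954 for Fn1, 0.708 to 0.952 for Vim, 0.805 to 0.993 for Adamts1 and 0.664 to 0.947 for Gja1, and from 0.416 to 0.779 for Snai1 and 0.469 to 0.894 for Snai2. Under other scalings, pseudocounts, filters and the geometric mean score, r lay between 0.793 and 0.894 for Fn1 and 0.907 and 0.959 for Adamts1. In the tumors of the larger identifier prefix, an alternative chosen after seeing the data, r was 0.801 for Fn1 and 0.993 for Adamts1. With DESeq2 dispersions the percentile of Snai2 moved from 80.2 to 71.4. Depth limits Cdh2, Zeb1, Zeb2 and Twist1, with at most 11 counts in a tumor. No paired analysis was possible because all 6 tumors belong to 1 group.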

Other observations

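Ranked by the ratio of tumor 5 to the next tumor among the 2040 genes highest there, Sox11 was 1st (13.2-fold), Fn1 2nd (11.0-fold), Vim 3rd (8.92-fold), Col4a1 4th (8.66-fold), Ankrd1 5th (8.31-fold), Gja1 6th (7.20-fold) and Adamts1 40th (3.47-fold). The genes in this paragraph that are no members were named after their values were seen. Col4a2, which pairs with Col4a1 in type IV collagen, was at 58.7 CPM in tumor 5, against 1.20 to 10.2 CPM elsewhere. Fbln5, an elastic fiber protein, was at 33.5 CPM against 3.98 to 7.13 CPM, and Timp3, a matrix-bound inhibitor of metalloproteases that also inhibits ADAMTS enzymes, at 781 CPM against 86.5 to 177 CPM. Fscn1, an actin-bundling protein of cell protrusions, was at 57.7 CPM against 3.88 to 8.93 CPM, and Igfbp4, an IGF-binding protein, at 273 CPM against 23.1 to 45.1 CPM.

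Tumor 5 was not the only tumor with genes past the 3-fold limit. It had 57 such genes and tumor 1 had 58, against 25 in tumor 2, 15 in tumor 3 and 5 each in tumors 4 and 6.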
